A study of Homo sapiens with 26 samples.

Results

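The 303 regions described here are stretches of chromatin with an H3K27ac peak after 1 h of Nutlin-3a, and none before, in both HCT116 lines of the study. H3K27ac peaks of 10 lists were merged into 87570 regions, and the 303 were selected on their measured calls, being present in both 1 h lists and absent from both 0 h lists of WT, and likewise in both 1 h lists and neither 0 h list of the RAD21 line. HCT116 is a human colorectal cancer line with wild-type p53. WT is the unmodified line, and the RAD21 line is the HCT116 derivative that the labels call HCT116_RAD21. Cells at 0 h had received DMSO, and the others Nutlin3a for 1 h or 10 h. WT was profiled for both H3K27ac and H3K4me1 at all of these times, and the RAD21 line for H3K27ac at 0 h and 1 h, with 2 libraries per group. By the study's methods, RAD21 in this line carries a degron and was depleted with the auxin analogue 5-Ph-IAA before Nutlin-3a was added. That treatment is not in the labels, while the peak names of these lists carry the letters KD. H3K4me1 and a 10 h time point of the RAD21 line were not analysed here, and whether the line is a single clone is not given in the sources used here.

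Nutlin-3a blocks the binding of MDM2 to p53, so that p53 accumulates and binds its response elements without DNA damage. H3K27ac marks promoters and enhancers in use, and H3K4me1 marks enhancers whether primed or active, so a site with H3K4me1 and no H3K27ac is usually called primed. Cohesin, of which RAD21 is a subunit, extrudes chromatin loops that bring enhancers and promoters together, often up to sites bound by CTCF.

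The lists set limits on every value below. The H3K27ac lists held 31640 to 49127 peaks and the H3K4me1 lists 84492 to 92943. They hold no read counts, so depth is unknown and the strength of a region is given as the percentile of its strongest peak among all peaks of the same list, ranked by the −log10 p-value of the peak caller. WT 0 h replicates 1 and 2 and WT 1 h replicate 1 covered 30.7 to 31.9 Mb and their peak names lack the word input, while the other 7 H3K27ac lists carry it and covered 49.1 to 66.6 Mb. Both WT 0 h lists thus lack the word, both 10 h lists have it, and the 1 h pair is split, so that time and naming cannot be told apart for 10 h against 0 h. The RAD21 lists covered 49.1 and 53.2 Mb at 0 h and 62.6 and 64.1 Mb at 1 h. WT lists covered 31.0 and 30.7 Mb at 0 h and 31.9 and 59.5 Mb at 1 h. A gain of the mark and a peak that only rose over the threshold at 1 h cannot be told apart. The list of RAD21 0 h replicate 2 carries BR2_BR3 in its peak names and may hold more than 1 library. As a check of the cell type, promoters of 10 of 10 epithelial markers were called in all 10 H3K27ac lists, and of 15 markers of fibroblasts, leukocytes, neurons and other cells found in the annotation 0 were called in all lists and 1 in any list.

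Sequences from GRCh37 (forward strand, 5′ to 3′) show what the regions hold. The first is the 300-bp window around the strongest summit of the region with the highest mean 1 h percentile, in an intron of GIPC2, with matches to the AP-1, TEAD, TCF/LEF and RUNX motifs in capitals.
GIPC2, chr1:78567463-78567762: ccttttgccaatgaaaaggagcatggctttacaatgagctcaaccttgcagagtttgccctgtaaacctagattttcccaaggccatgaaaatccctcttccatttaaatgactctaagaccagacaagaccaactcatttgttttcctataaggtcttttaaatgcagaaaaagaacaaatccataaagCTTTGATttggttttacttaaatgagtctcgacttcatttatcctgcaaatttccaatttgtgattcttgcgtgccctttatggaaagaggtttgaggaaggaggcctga
The next are the full p53 sites found in the summit windows, in capitals with their flanks. Labels name the nearest coding start, and that of C2orf74 lies 114559 bp from its region, which is inside USP34.
C2orf74, chr2:61505074-61505133: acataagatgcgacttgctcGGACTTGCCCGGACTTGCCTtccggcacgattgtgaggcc
FGD3, chr9:95750604-95750656: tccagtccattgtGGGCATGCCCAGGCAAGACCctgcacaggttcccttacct
The others show an AP-1 match, a TEAD match in each of 2 regions (on the reverse strand), and a CTCF match, as examples of the motifs counted further on.
CRACD, chr4:56893072-56893178: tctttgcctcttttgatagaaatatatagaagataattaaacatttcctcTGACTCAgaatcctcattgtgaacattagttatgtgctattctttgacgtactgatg
FANCC, chr9:98145736-98145822: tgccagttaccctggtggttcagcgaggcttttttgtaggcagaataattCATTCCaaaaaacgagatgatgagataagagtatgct
RUNX2, chr6:45623947-45624052: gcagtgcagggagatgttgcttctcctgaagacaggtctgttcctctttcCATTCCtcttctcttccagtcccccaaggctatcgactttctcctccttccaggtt
NOL10, chr2:10715791-10715902: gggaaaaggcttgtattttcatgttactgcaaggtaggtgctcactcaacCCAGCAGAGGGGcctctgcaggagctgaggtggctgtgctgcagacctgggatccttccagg
The GIPC2 window held 1 match, of TCF/LEF (CTTTGAT). The C2orf74 site had 0 mismatches to the p53 consensus and the FGD3 site 1.

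WT gained 1320 regions (1.51% of all) and the RAD21 line 4032 (4.6%), and the 303 are the regions in both groups (0.346%). The rule chose them, so nothing is read from that count. A gain of a single line failed the rule in the other line, where the mark could already be present at 0 h. Of 1017 WT-only gains, 519 and 552 were called in RAD21 0 h replicates 1 and 2. Of 3729 RAD21-only gains, 1243 and 1280 were called in WT 0 h replicates 1 and 2. WT lost 1159 regions and the RAD21 line 2514. Regions lost in both lines numbered 85, regions gained in WT and lost in the RAD21 line 52, and the reverse 76. The lists behind the WT and RAD21 comparisons share no library. The weakest peak among the 303 had a −log10 q-value of 1.36, and in 19 regions the weakest of the 4 lists at 1 h lay under 2. Just outside, 645 regions missed only in WT 1 h replicate 1, 189 only in WT 1 h replicate 2, and 63 and 66 only in RAD21 1 h replicates 1 and 2. A further 117 and 150 had a peak in WT 0 h replicate 1 or 2 only, with a median −log10 q-value of 4.17 and 4.25, and 53 and 63 in RAD21 0 h replicate 1 or 2. WT 1 h replicate 1 thus decided membership more often than any other 1 h list. Without it 948 regions met the rule. Without WT 1 h replicate 2, which leaves the WT lists of a single naming group, 492 did.

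The shared gains, like other gains absent at 0 h, ranked low among the peaks of their lists. Their median percentile was 21.5 in WT 1 h replicate 1, 37.7 in WT 1 h replicate 2, 40.6 in RAD21 1 h replicate 1 and 37.4 in RAD21 1 h replicate 2, against 52.0 to 54.2 for all regions called in those lists. WT-only gains had medians of 17.8 and 35.3 in the WT lists, and RAD21-only gains 32.4 and 31.4 in the RAD21 lists, so low ranks were not particular to the shared gains. The highest value reached by any of them was 59.1, 64.8, 63.8 and 61.7 in the same order. Median enrichment over the local background was 3.94-fold and 4.09-fold in the WT lists and 5.22-fold and 4.84-fold in the RAD21 lists. All regions called in those lists had medians of 5.73, 5.96, 8.58 and 9.2 in the same order. Folds depend on the depth of each library, so they were not compared between lists. The regions were 390 to 3480 bp wide (median 1220 bp). Across the 303, percentiles correlated with Spearman's rho of 0.277 between the WT replicates, 0.62 between the RAD21 replicates and 0.0981 to 0.226 between lines. These are descriptions across regions that share their libraries and were chosen on the same lists.

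**Figure D1:**
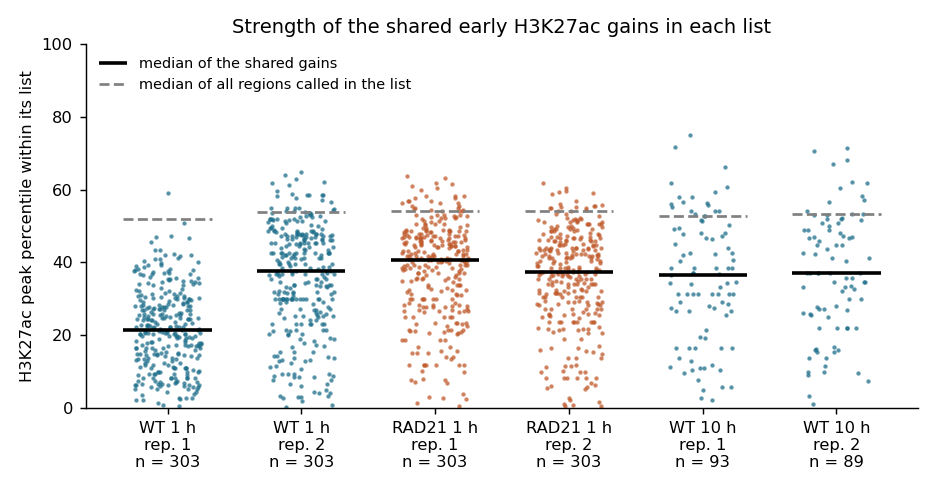
Within-list percentile of H3K27ac peak strength (vertical axis) for the 303 regions in each list (horizontal axis), 1 point per region called there, with the median of these regions as a solid line and that of all regions called in the list as a dashed line. Medians of the shared gains lie between 21.5 and 40.6, below the dashed lines in every list.

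The strongest regions by the mean of the 4 lists at 1 h were mostly intronic. The first lay in an intron of GIPC2, a PDZ-domain scaffold gene (chr1:78566296-78568463, 54646 bp from the start site), at percentiles 59.1 and 64.8 in WT and 50.6 and 43.7 in the RAD21 line. The second lay in an intron of DAP, a regulator of autophagy and cell death (chr5:10719239-10721490), at 24.7 and 62.8 in WT and 63.8 and 61.7 in the RAD21 line. WT replicates disagreed at DAP far more than at GIPC2, and the low value came from WT 1 h replicate 1. A region at a non-coding promoter 26196 bp from the start of CDK17, a cyclin-dependent kinase (chr12:96820454-96821718), stood at 38.7 and 52.8 in WT and 63.2 and 54.8 in the RAD21 line. FANCC, part of the Fanconi anaemia core complex for crosslink repair, held one in an intron (chr9:98144786-98146982) at 40.2 and 54.5 in WT and 58.2 and 55.1 in the RAD21 line. WT values lay above those of the RAD21 line at GIPC2, under them at CDK17 and FANCC, and overlapped them at DAP. The shared gains as a whole ranked lower in WT 1 h replicate 1 (median 21.5) than in the other 1 h lists. Here and below, percentiles set side by side are therefore no measure of a difference between the lines.

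RUNX2, a transcription factor of bone formation, held an intronic region (chr6:45623231-45624649) at 43.4 and 55.0 in WT and 51.4 and 55.5 in the RAD21 line. The promoter of LFNG, a glycosyltransferase that modifies Notch receptors (chr7:2558817-2560252), stood at 34.7 and 62.1 in WT and 54.0 and 54.2 in the RAD21 line. An intergenic region nearest to ADCY8, an adenylyl cyclase, stood at 46.8 and 61.8 in WT and 48.5 and 41.3 in the RAD21 line. The lines overlapped in these 3. B4GALNT2, which makes the Sda blood group antigen, held an intronic region (chr17:47223327-47225229) at 39.4 and 54.0 in WT and 54.4 and 49.7 in the RAD21 line. The intergenic region nearest to EFCAB2 (chr1:245081824-245082526) stood at 47.3 and 53.9 in WT and 47.5 and 47.0 in the RAD21 line. The region nearest to PPP2CA, the catalytic subunit of protein phosphatase 2A (chr5:133582516-133584107), stood at 32.5 and 58.6 in WT and 52.2 and 50.4 in the RAD21 line. The lines overlapped in 7 of these 10 regions, all but GIPC2, CDK17 and FANCC, and no difference between them was tested because the rule used these lists.

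Most of the shared gains lay away from promoters. By GENCODE annotation of GRCh37, 28 of 303 (9.24%, 95% Wilson interval 6.47 to 13%) overlapped a promoter (1000 bp upstream to 200 bp downstream of a start site), against 19.7% of all regions, 16.6% of the 1017 gained in WT only and 8.82% of the 3729 gained in the RAD21 line only. The intervals cover counting error only. Introns held 160 (52.8%, all regions 49.7%), exons 40 (13.2%, all regions 17.9%) and intergenic sequence 75 (24.8%, interval 20.2 to 29.9%, all regions 12.7%). The intergenic share was 22.7% of WT-only gains and 21.0% of RAD21-only gains, both inside that interval. The median distance to a protein-coding start site was 33800 bp, against 14500 bp for all regions, and 56 regions (18.5%) had none within 100 kb (all regions 9.27%). WT-only gains had a median of 24000 bp. None lay within 100 kb for 15.2% of WT-only and 13.2% of RAD21-only gains. The RAD21-only gains, although equally poor in promoters, lay closer to start sites, at a median of 17800 bp. The shared gains were dispersed, with 297 different nearest genes, and 17 of them fell into 8 groups within 100 kb. ARAP2, ARHGAP17, CRADD, LOXL2, PIK3CD and PPP2CA were each the nearest gene of 2.

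Protein-coding promoters accounted for 18 regions, and after LFNG the strongest were these. The promoter of MAB21L4 (chr2:241832326-241834307) stood at 30.3 and 49.2 in WT and 52.5 and 46.1 in the RAD21 line. That of DPF1, a subunit of neuronal BAF remodelling complexes (chr19:38719597-38720375), stood at 36.7 and 36.7 in WT and 37 and 49.8 in the RAD21 line. EDN1 encodes the vasoconstrictor peptide endothelin-1, and its promoter (chr6:12289492-12290988) stood at 38.0 and 47.3 in WT and 41.2 and 32.0 in the RAD21 line. That of PRCP, a lysosomal carboxypeptidase (chr11:82569450-82570404), stood at 19.7 and 52.4 in WT and 48.5 and 37.9 in the RAD21 line. Groups overlapped at MAB21L4, EDN1 and PRCP, and at DPF1 both RAD21 values lay above both WT values.

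Of 50 canonical p53 targets and 28 genes picked from the distal targets named in the study's text (25 found in the annotation), 0 had one of the 303 regions within 100 kb of a start site, and a count of 0 allows up to 0.99% of the regions. The study's own list of distal targets is longer and was not used here in full, so the second count covers only these genes. Over all regions 1.05% lay within 100 kb of a canonical target and 0.56% of a distal one. WT-only gains had 8 (0.787%) and RAD21-only gains 57 (1.53%) near canonical targets. Beyond that distance, a region 144541 bp from PMAIP1, a p53-induced BH3-only gene (chr18:57711789-57712486), stood at 27.9 and 19.9 in WT and 48.6 and 43.4 in the RAD21 line and was called in neither 10 h list. It was picked after its values were seen, and regions farther than 100 kb from the listed genes were not counted.

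Immediate early genes, which respond to many stimuli within minutes, had 4 of the 303 within 100 kb (1.32%, all regions 0.791%), for 33 listed genes of which 31 were annotated. The region 28889 bp from DUSP1, a phosphatase of MAP kinases (chr5:172227087-172229530), stood at 17.3 and 12.8 in WT and 52.1 and 50.4 in the RAD21 line. Both WT values lay under both RAD21 values there. The region 52765 bp from FOSL2, an AP-1 subunit (chr2:28668490-28668928), stood at 28.1 and 41.2 in WT and 44.6 and 30.6 in the RAD21 line, and the groups overlapped. The region 48511 bp from IER3 (chr6:30662547-30663813) stood at 6.25 and 42.6 in WT and 45.1 and 40.0 in the RAD21 line. The region 53321 bp from MAFF, a small Maf factor (chr22:38542992-38544618), stood at 25.4 and 36.7 in WT and 18.6 and 17.0 in the RAD21 line, with WT above. ELF3, an epithelial transcription factor, had a region 65460 bp away (chr1:202045175-202046963) at 24.2 and 47.0 in WT and 39.4 and 23.5 in the RAD21 line. Cohesin and CTCF genes, integrated stress genes and Wnt targets had 0, of 15, 17 and 16 genes, where all regions had 0.296%, 0.411% and 0.29%.

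Full p53 sites were rare in the summit windows. Over 300 bp around the strongest summit, and with up to 2 mismatches outside the cores, 2 of 303 regions held 1 (0.66%, interval 0.181 to 2.37%), against 0.89% of all regions and 1.67% of WT-only gains. In windows of 1000 bp around the middle of the region 4 did (1.32%, all regions 1.73%). With no mismatch allowed, 1 of 303 (0.33%, interval 0.0583 to 1.85%) held a site in 300 bp, against 0.114% of all regions. The intervals at 300 bp include the shares of all regions in both settings, and the direction of the difference turned between them. Matches were searched on both strands and describe letters, not binding.

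The windows had a median GC content of 45.0%, against 46.7% for RAD21-only gains, 51.0% for WT-only gains and 52.3% for all regions. Median CpG per 100 bp was 0.667, against 1.0, 1.33 and 1.67 in the same order. The GC box (GGGCGG) occurred in 23 windows (7.59%, interval 5.11 to 11.1%, RAD21-only 9.33%, all regions 19.5%) and ETS (CCGGAAG) in 1 (0.33%, all regions 2.75%, WT-only 1.57%, RAD21-only 1.07%). TEAD (GGAATG) occurred in 63 (20.8%, interval 16.6 to 25.7%, all regions 14.2%, WT-only 17.2%, RAD21-only 17.3%). TCF/LEF (CTTTGAT), the motif of Wnt signalling, occurred in 15 (4.95%, interval 3.02 to 8.01%, all regions 2.66%, WT-only 2.95%, RAD21-only 3.78%). The interval includes the RAD21-only share. AP-1 (TGANTCA) occurred in 40 (13.2%, all regions 10.8%) and RUNX (TGTGGT) in 67 (22.1%, all regions 20.2%), both with intervals that include the share of all regions. CTCF sites, searched by name with up to 1 mismatch, occurred in 10 (3.3%, all regions 3.88%). FOX (TGTTTAC) in 10 (3.3%, all regions 2.87%) and the E-box (CACGTG) in 16 (5.28%, all regions 4.64%) had intervals that include the share of all regions, and CRE (TGACGTCA) occurred in 0, which allows up to 0.99% (all regions 0.227%). Some of these shares changed with the window. Over 500 bp, AP-1 occurred in 113 regions (37.3%, interval 32.0 to 42.9%), against 20.4% of all regions, 31.6% of WT-only gains and 39.9% of RAD21-only gains. TEAD occurred in 126 (41.6%, interval 36.2 to 47.2%, all regions 23.6%, WT-only 29.3%, RAD21-only 29.8%). FOX occurred in 25 (8.25%, interval 5.65 to 11.9%, all regions 5.23%), and its interval includes the WT-only share of 5.9% and the RAD21-only share of 7.19%. RUNX occurred in 103 (34.0%, interval 28.9 to 39.5%, all regions 30.8%). Base composition differs between the groups, and its part in these shares was not tested.

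**Figure D2:**
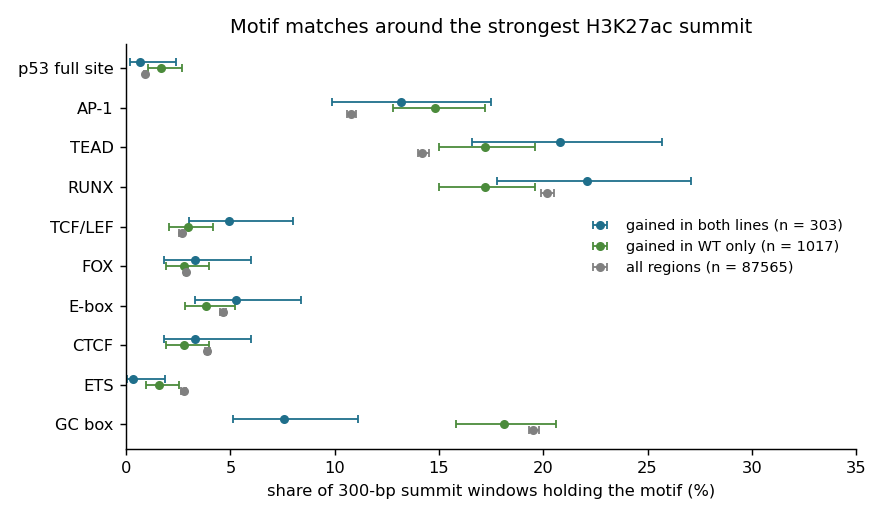
Share of 300-bp summit windows that hold each motif (horizontal axis, %) for the shared gains, the WT-only gains and all regions, with 95% Wilson intervals as bars. The shared gains show the GC box in 7.59% of windows against 19.5% of all regions and TEAD in 20.8% against 14.2%, while p53 sites stand at 0.66% against 0.89%.

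H3K4me1 was already present at nearly all of these regions. Of the 303, 301 (99.3%, interval 97.6 to 99.8%) carried H3K4me1 in both WT 0 h lists, before Nutlin-3a, against 54.9% of all regions, 79.9% of WT-only gains, 88.9% of RAD21-only gains and 90.2% of the 33185 regions called in at least 4 H3K27ac lists. In 300 it was called in all 6 H3K4me1 lists. With peaks of −log10 q-value of at least 5 only, 270 (89.1%) carried it in both 0 h lists. At 0 h the median percentile of their H3K4me1 was 80.2 and 77.5 in the replicates, beside 80.0 and 79.0 for all regions that had a peak, so their prior H3K4me1 was of ordinary strength. The region with H3K4me1 in no list was the one with the p53 site in an exon of USP34, nearest to the start of C2orf74 (chr2:61503885-61505617).

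Most of the shared gains had no H3K27ac call later on. In WT at 10 h, 56 (18.5%, interval 14.5 to 23.2%) were called in both lists, 70 (23.1%) in exactly 1 and 177 (58.4%, interval 52.8 to 63.8%) in neither. Over all regions 38.3% were called in both and 40.4% in neither, over WT-only gains 28.4% and 59.1%, and over RAD21-only gains 35.6% and 45.9%. A regional loss and a peak that falls under the threshold cannot be told apart here, and the 10 h lists are all in the naming group with input. They were the longest lists, with 49127 and 46638 peaks. Of the 101 strongest by mean 1 h percentile, 34 (33.7%, interval 25.2 to 43.3%) were called in both 10 h lists. In the middle group 11 of 101 were (10.9%, interval 6.19 to 18.5%), and again 11 of 101 in the weakest. The groups were cut on the 1 h lists that the rule used and the regions share their libraries, so this is a description and was not tested. By class, 12 of 40 exonic (30.0%), 33 of 160 intronic (20.6%), 9 of 75 intergenic (12.0%) and 2 of 28 promoter regions (7.14%, interval 1.98 to 22.6%) were called in both.

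**Figure D3:**
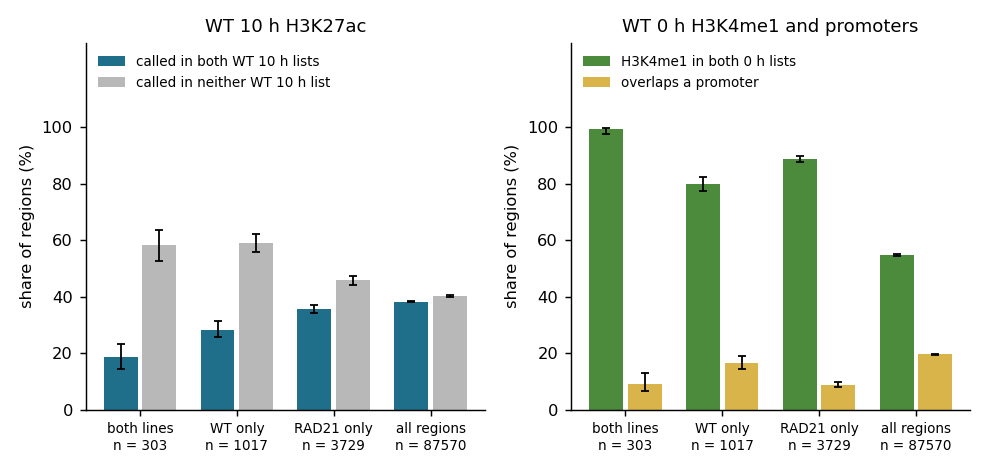
Shares of regions (vertical axes, %) called in both or neither WT 10 h H3K27ac list (left), and with H3K4me1 in both WT 0 h lists or over a promoter (right), for regions gained at 1 h in both lines, in WT only, in the RAD21 line only, and for all regions, with 95% Wilson intervals. The shared gains have the lowest share called in both 10 h lists, 18.5%, and the highest share with H3K4me1 at 0 h, 99.3%.

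The 2 regions with a full p53 site in the 300-bp window were among the strongest at 10 h. The 10 h calls of regions found only under looser motif settings are not given here. FGD3 held the region with the highest 10 h mean of the 56 (chr9:95750206-95751243). It stood at percentiles 22.2 and 47.9 in WT at 1 h and 74.9 and 70.6 at 10 h, with RAD21 values of 32.5 and 37 at 1 h. DAP followed with 71.8 and 67.0 at 10 h. The region in USP34, 114559 bp from the start of C2orf74, stood at 39.3 and 52.9 in WT at 1 h, at 31.2 and 33.8 in the RAD21 line, and at 66.2 and 68.2 in WT at 10 h. Percentiles at 1 h and 10 h come from lists of different length and naming, and regions called in at least 4 H3K27ac lists also had medians of 57.7 and 64.3 at 1 h and 69.6 and 68.1 at 10 h, so these values are no measure of change. Enrichment was 4.3-fold and 5.34-fold at 1 h and 14.6-fold and 11.6-fold at 10 h in FGD3, and 4.75-fold and 5.28-fold against 5.23-fold and 7.96-fold in the USP34 region. Folds depend on the depth of their own library, so they are no measure of change either. VPS13D, a lipid transfer protein of mitochondria, held an intronic region (chr1:12548093-12549574) at 33.8 and 46.6 at 1 h and 60.8 and 71.3 at 10 h in WT. An intergenic region nearest to SLC6A16 (chr19:49775061-49776239) stood at 45.5 and 45.0 at 1 h and 61.7 and 62.0 at 10 h. GIPC2 stood at 42.0 and 53.4 at 10 h.

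Of the 177 called in neither 10 h list, the strongest at 1 h was that near EFCAB2, given above. CRADD, an adaptor with a death domain, held the next in an intron (chr12:94094862-94095770), at 35.4 and 55.0 in WT and 48.4 and 54.8 in the RAD21 line. CEP112, a centrosomal protein, followed with an exonic region (chr17:63738279-63739566) at 46.9 and 56.5 in WT and 43.1 and 45.8 in the RAD21 line. A region in an intron of CASK, nearest to GPR82 (chrX:41637521-41639171), stood at 36.4 and 45.4 in WT and 56.2 and 51.1 in the RAD21 line. The intergenic region nearest to MAMDC2 (chr9:72645513-72646213) stood at 39.7 and 36.9 in WT and 50.5 and 59.7 in the RAD21 line. Both RAD21 values were the higher ones at the last 2, and CEP112 had the reverse.

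H3K4me1, which the rule did not use, is given next as a description of the group, since few single regions passed the test. The 299 H3K4me1 regions that overlapped the shared gains and were called in all 6 lists had a median rank change of 0.24 at 1 h against 0 h, on a scale of normal scores of the within-list rank, and 241 of 299 (80.6%) moved up. The median over all 60476 H3K4me1 regions was −0.00323, with 49.6% up. WT-only gains had a median of 0.125 (65.4% up) and RAD21-only gains 0.0572 (57.9% up). At 10 h against 1 h the shared gains had a median of −0.239 and 70 of 299 moved up (23.4%), and at 10 h against 0 h it was 0.0496 (56.2% up). These 3 comparisons share their lists in pairs, so the first and the last median both contain the 1 h lists. Median percentiles of the regions show the same course in each list, with 80.2 and 77.5 at 0 h, 86.3 and 85.8 at 1 h and 77.6 and 80.2 at 10 h, so that both 1 h values lay above all others.

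**Figure D4:**
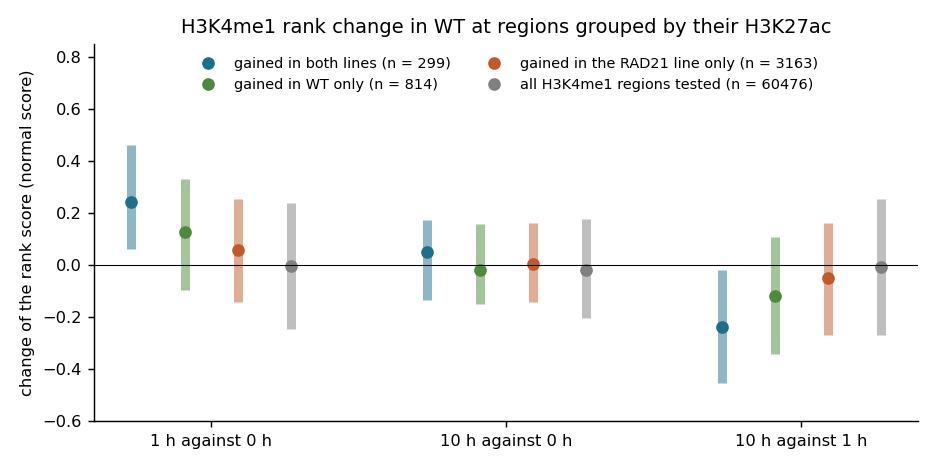
Change of the H3K4me1 rank score in WT (vertical axis, normal scores) in 3 comparisons (horizontal axis) for H3K4me1 regions at the shared gains, at gains of a single line, and for all tested regions, with the median as a point and the range from the lower to the upper quartile as a bar. The shared gains stand at 0.243 at 1 h against 0 h and at −0.239 at 10 h against 1 h, while all regions stay near 0.

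The test was run on each H3K4me1 region, scored by its strongest peak, which need not lie at the gain. With limma and Benjamini-Hochberg adjustment over all 60476 regions, 4 of 299 were higher at 1 h than at 0 h (0.291% of all regions were) and 0 lower (0.304% of all). At an unadjusted limma p under 0.05, 91 were higher and 2 lower. Of all 60476 regions, 9401 had such a p in either direction. At 10 h against 0 h 1 was higher (0.615% of all) and 0 lower (0.0231% of all), with 11 higher and 5 lower at an unadjusted limma p under 0.05. Here 5235 of all 60476 regions had such a p in either direction. At 10 h against 1 h 2 were higher (1.92% of all) and 15 lower (1.13% of all), with 10 and 89 at the unadjusted limma p. Over all 60476 regions 11374 had such a p in either direction. When regions were ranked by their fold, 0 passed in the first comparison, 0 in the second and 1, which was higher, in the third, while the medians stayed at 0.29, 0.06 and −0.27. Leaving out any 1 of the 6 lists left 0 or 1 call in the first comparison. In the second it left 0 without WT 10 h replicate 1. In the third it left 1 higher and 1 lower without WT 1 h replicate 1, 2 higher and 1 lower without WT 1 h replicate 2, 0 higher and 2 lower without WT 10 h replicate 1, and 2 higher and 3 lower without WT 10 h replicate 2. The excess of lower calls thus rested on having both 1 h and both 10 h lists, while the medians of those 4 fits ran from −0.255 to −0.226. Replicates are separate libraries of one line, so p-values measure the spread between libraries only.

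Other properties of the lists moved with this change. The 1 h H3K4me1 lists covered 198 and 212 Mb, the 0 h lists 178 and 196 Mb and the 10 h lists 168 and 188 Mb. The median GC content of the 299 was 43.8%, against 46.1% for all regions, and the change of all regions varied with GC. Split into 5 groups by GC, medians of all regions ran from −0.0376 to 0.0557 at 1 h against 0 h, and those of the shared gains from 0.16 to 0.328, so the latter were higher in every group. At 10 h against 1 h they ran from −0.333 to −0.135 against −0.0511 to 0.019 for all regions. With scores centred on 20 GC bins the 3 medians were 0.257, 0.0429 and −0.232. The part of list breadth in the change was not tested.

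Individual regions show the course. At 1 h against 0 h the smallest p-value belonged to a region in an intron of NLRP1, an inflammasome sensor (chr17:5418877-5420857, nearest start ENSG00000286190). Its percentiles among the tested regions were 36.7 and 50.7 at 0 h, 86.6 and 82.2 at 1 h and 62.8 and 66.6 at 10 h, a change of 1.18 ± 0.2 (SE, n = 2 lists per time) at 1 h with an adjusted p of 0.0178 in limma. NOL10, a nucleolar protein, held the region of the CTCF match shown above (chr2:10715675-10717571), at 44.4 and 29.6, then 73.9 and 84.7, then 39.2 and 43.8, a change of 1.17 ± 0.23 (SE, limma adjusted p 0.0349). PREP, a prolyl endopeptidase, held a region (chr6:105765615-105768453) at 71.5 and 75.4, then 93.5 and 91.7, then 73.2 and 82.0, and changed by 0.82 ± 0.17 (SE, limma adjusted p 0.0459). The fourth, nearest to SACM1L, a phosphoinositide phosphatase (chr3:45680271-45689525), stood at 37.3 and 39.4, then 69.6 and 83.8, then 51.2 and 42.4 (limma adjusted p 0.0475). In these 4 both 1 h values lay above both 0 h values and both 10 h values.

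At 10 h the exception was TNS3, a tensin of focal adhesions. Its region (chr7:47330028-47331956) stood at 67.4 and 69.0 at 0 h, 73.6 and 68.8 at 1 h and 97.8 and 94.8 at 10 h. It changed by 1.35 ± 0.18 against 0 h (SE, limma adjusted p 0.003) and by 1.26 ± 0.18 against 1 h (SE, limma adjusted p 0.00201), and its H3K27ac was called in 1 of the 10 h lists. The region with the second smallest p-value at 10 h against 0 h, 139338 bp wide and with MYC as the nearest coding start of the gain inside it, did not pass there (0.74 ± 0.19, SE, limma adjusted p 0.134), but was higher at 10 h than at 1 h (0.91 ± 0.19, SE, limma adjusted p 0.0205). That score belongs to the strongest peak anywhere in this wide region. At the gain itself, H3K4me1 stood at 91.6 and 95.8 among all peaks of the list at 1 h. At 10 h it stood there at 91.1 and 88.6, so the rise was not seen at the gain. The region with the third smallest p-value at 10 h against 0 h, nearest to IFNA5, an interferon gene (chr9:21292999-21296259), had −0.80 ± 0.23 (SE, limma adjusted p 0.209), but fell from 78.0 and 83.6 at 1 h to 28.8 and 51.5 at 10 h (limma adjusted p 0.0175). The promoter of MARCHF4, a membrane ubiquitin ligase (chr2:217234972-217239768), fell from 81.7 and 81.8 at 1 h to 37.8 and 38.9 at 10 h (−1.20 ± 0.20, SE, limma adjusted p 0.00487), after 47.7 and 54.2 at 0 h. MAB21L4 fell from 99.6 and 99.5 to 95.5 and 97.3 (−0.79 ± 0.16, SE, limma adjusted p 0.0154). The regions near DUSP1 and PMAIP1 were also among the 15 that fell, DUSP1 from 62.6 and 68.7 to 25.8 and 30.0 and PMAIP1 from 70.8 and 76.5 to 26.8 and 16.0 (limma adjusted p 0.0368 and 0.0249). The region of the FGD3 p53 site stood at 12.6 and 16.5 at 0 h, 10.9 and 12.6 at 1 h and 47.6 and 47.9 at 10 h, with a change of 1.00 ± 0.29 against 0 h that did not pass (SE, limma adjusted p 0.214).

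**Figure D5:**
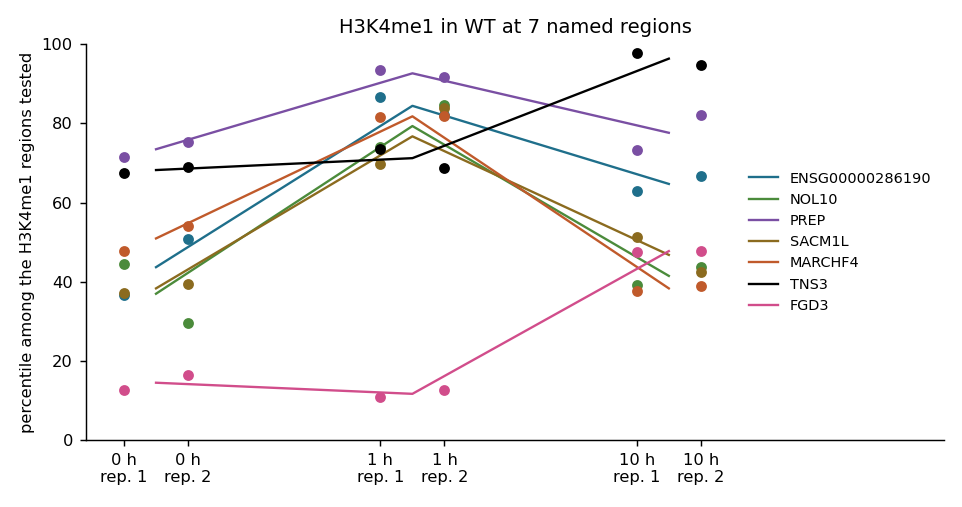
Percentile of H3K4me1 (vertical axis) among the tested regions in each of the 6 WT lists (horizontal axis) for 7 named regions, each point 1 list and each line joining the means of the time points. PREP, NOL10, SACM1L, MARCHF4 and ENSG00000286190 are highest at 1 h, while TNS3 and FGD3 are highest at 10 h, at 97.8 and 94.8 and at 47.6 and 47.9.

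H3K4me1 was also set beside the later fate of H3K27ac. Among the 177 H3K4me1 regions whose shared gain was called in neither 10 h H3K27ac list, the median change from 1 h to 10 h was −0.293 and 34 (19.2%) moved up. Among the 54 called in both, it was −0.0531 and 20 (37%) moved up, with 68 regions called in 1 list between them at −0.219. From 0 h to 1 h the medians were 0.285, 0.109 and 0.237 in the same order of neither, both and 1. Against 0 h, the 10 h medians were 0.00774 where H3K27ac was called in neither list and 0.109 where it was called in both. Of the 15 regions that fell between 1 h and 10 h, 8 were among the 177 with a gain called in neither list. Another 6 were among the 68 called in 1 list, and 1 among the 54 called in both. The difference between these groups of regions was not tested.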

How the data were processed

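ChIP-seq of H3K27ac and H3K4me1 was analysed from the 16 deposited peak lists, 1 per library, with groups and replicate numbers from the sample labels (cell line, mark, time). The 10 input libraries were not used here. According to the study's methods and the submitters' processing notes, the authors trimmed reads (Trim Galore 0.6.6), mapped them to GRCh37 (Bowtie2 2.3.2), removed duplicates and blacklisted reads, and called peaks with MACS2 2.2.7.1, narrow for H3K27ac and broad for H3K4me1. Each deposited list gives, as the authors' values, the position of a peak, its fold enrichment (a ratio over local background), its −log10 p-value and its −log10 q-value. Folds and p-values depend on the depth of their own library, so the strength of a region was ranked within its list. Folds are also printed as the authors' values, which are not comparable between lists. Limits on the −log10 q-value were used in alternatives.

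Peaks of the 10 H3K27ac lists were merged where they overlapped or adjoined. An overlap of 1 bp with a peak of a list made a region called there. Promoters were those of basic GENCODE transcripts (1000 bp before to 200 bp after the start site), and the nearest gene was that with the nearest protein-coding start site. Motifs were searched on both strands of GRCh37, the p53 site as a pair of adjoining decamers. H3K4me1 ranks were fitted with limma 3.58.1 (lmFit, eBayes with a trend, R 4.3.3) on normal scores over the 60476 regions called in all 6 lists, the 3 time points as groups with 1 shared spread and no covariates, with Benjamini-Hochberg adjustment. Other steps used Python 3.11.15, pandas 2.3.3 and SciPy 1.17.1. Scripts were tested on simulated data. No exact permutation test of a single value was run, since 2 lists against 2 cannot reach 0.05.

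The regions, gene lists and comparisons were chosen with earlier results of these data known. Named regions followed this rule: the 10 with the highest mean 1 h percentile, all near p53 targets (0), those with a p53 site (2), the 5 strongest protein-coding promoters, the 5 strongest at 10 h and the 5 strongest at 1 h that were called in neither 10 h list, the 3 with the lowest H3K4me1 p in each comparison, and any without H3K4me1 (1). The regions near immediate early genes and ELF3, SACM1L and PMAIP1, and the sequences shown, were chosen after their values were seen. Alternatives changed the call threshold, overlap, merging, promoter and motif definitions, ranking, replicate block and libraries.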

Additional observations from a re-analysis of the deposited data

Results flagged for a closer look

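Regions that moved in opposite directions in the 2 lines stood beside the shared gains. H3K27ac at 52 regions was gained at 1 h in both WT lists and lost in both lists of the RAD21 line, and at 76 regions it was lost in WT and gained in the RAD21 line. The regions were picked for these calls in every list of each line, so their agreement between replicates is built in. Over all 87570 regions, WT gained 1320 and lost 1159, and the RAD21 line gained 4032 and lost 2514. Peak names of both WT 0 h lists lack the word input, while those of all RAD21 lists carry it. The difference between the lines was not tested. For comparison 303 regions were gained in both lines and 85 lost in both.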

How the results depend on the processing

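Of 62 alternatives, 33 left a count within 1.5 times the reported one. The median H3K4me1 changes of the shared gains kept their sign in every fit. The 303 shared gains fell to 89 when 1 h peaks needed a −log10 q-value of at least 5, and ranged from 356 to 948 when 1 list was left out. The 56 regions called in both 10 h lists became 126 with at least 1 list, 22 above the same q limit, and 89 to 93 with a single 10 h list. The 301 with prior H3K4me1 stayed between 270 and 301. Promoter regions fell from 28 to 18 with protein-coding genes only and to 16 by summit. Regions with a p53 site numbered 1 with no mismatch (0.33%, all regions 0.114%, which turns the direction of the difference from all regions), 4 with a spacer of up to 13 bp, 25 with a single exact decamer (8.25%, all regions 9.75%), and 4 in a window of 1000 bp, an alternative added after seeing the data, as were the GC bins. H3K4me1 calls at shared gains, 4, 1 and 17 in the 3 comparisons (1 h against 0 h, 10 h against 0 h, 10 h against 1 h), became 0, 0 and 1 with ranks by fold (in the third 1 higher and 0 lower, against 2 higher and 15 lower), 4, 1 and 10 where all 6 lists had to reach that q limit, and 2, 1 and 15 with GC bins. Without 1 list they ranged from 0 to 1, 0 to 1 and 2 to 16. Calls over all regions, 360, 386 and 1843, fell to 6, 4 and 200 by fold and to as few as 19, 5 and 187 without 1 list (WT 0 h replicate 1, WT 10 h replicate 1 and WT 10 h replicate 1). In fits without a list the lone list of a group was assumed to vary like the others. With a replicate block the calls were 6, 1 and 18. Same-numbered lists did not deviate together (correlations under 0.1), so the numbers were not taken to pair the samples. The lists hold no counts, so depth limits which weak peaks were called to an unknown extent.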
